A study of Danio rerio with 6 samples.

Results

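The genes described here are the zebrafish transcription factors of the Sox, Fox, Klf and T-box families, measured in regenerating hearts with and without a block of Notch signalling. They were chosen by name: every gene that the authors' deposited table calls sox, fox (letters A to R), klf or tbx followed by a number, apart from 2 names that the choice leaves out. Of the 122 names left, 111 have an identifier in the FPKM table and are the members, out of 24667 genes that both deposited tables hold. They are 54 Fox, 22 Sox, 20 Klf and 15 T-box genes. The other 11 names, among them sox17, sox4b and foxo1a, have no FPKM under their identifier.

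RNA was sequenced from 6 heart samples of adult zebrafish (Danio rerio), 3 of wild-type fish (WT) and 3 of fish with the transgene Tg(hsp70l:DN-MAML). The transgene encodes a dominant-negative form of Mastermind, the co-activator that Notch needs to switch on its targets, placed behind the heat shock promoter hsp70l, so it is not limited to any cell type of the heart. All fish were of the TU-AB strain and 6 to 12 months old, and both groups had their hearts amputated, were heat shocked at 38 C for 1 h daily and were sampled 5 days after amputation. The labels do not say whether a sample is 1 heart or a pool. The comparison of DN-MAML with WT addresses which genes lie downstream of Notch in the regenerating heart.

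All 4 families bind DNA through a domain that gives the family its name or kind: an HMG box in Sox, a forkhead in Fox, zinc fingers in Klf and a T-box in Tbx proteins. SoxF factors act in the endothelium, where they regulate Notch pathway genes, and FoxC factors act with them in arterial and lymphatic vessels. Klf2 is switched on in endothelium and endocardium by blood flow, and in zebrafish klf2a is needed for heart valves. Tbx5 and Tbx20 are cardiac factors that act with Gata and Nkx proteins, and Tbx2 represses chamber genes in the atrioventricular canal.

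The values are FPKM, fragments scaled to gene length and to the size of the library, as the authors deposited them, so levels can be set side by side between genes. The FPKM of a sample add up to between 852778 and 914709. The depth of each sample is unknown, but the authors' mean normalized counts add up to 55194779 over all genes. The cardiomyocyte markers (19 found) summed to 63600 to 73920 FPKM in WT and 55410 to 64250 in DN-MAML, with none at 0 in every sample. The leukocyte markers (21, none at 0) summed to 327 to 439 FPKM in WT and 438 to 514 in DN-MAML, and the erythroid markers (17, of which 1 was at 0 throughout) to 18590 to 32820 and 11500 to 17120. These shifts ran alongside the comparison below, and their part in it was not tested. In such bulk samples, fewer cells of a type and less RNA per cell cannot be told apart.

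Many members were near silent. A mean of at least 1 FPKM over the 6 samples was reached by 51 members (19 Fox, 18 Klf, 8 Sox and 6 T-box), and 16 reached 10 FPKM. At the other end, 43 members had a mean under 0.1 FPKM, and 7 of these were at 0 in every sample, 4 of them Fox and 3 Sox genes. The Klf family stood apart in that none of its 20 members was under 0.1 FPKM, against 28 of 54 Fox, 11 of 22 Sox and 4 of 15 T-box genes. This holds for the members only: klf5l, which the choice by name did not take in, had at most 0.01 FPKM. All 9 SoxB genes, known from the nervous system, were under the minimum of 0.5 FPKM, as were all members of FoxA, which acts in endoderm, and of FoxB, FoxE, FoxF, FoxG, FoxH, FoxI, FoxL, FoxQ and FoxR.

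klf2a was the highest member, with 52.26, 50.28 and 53.82 FPKM in WT (replicates 1, 2 and 3, the order kept throughout) and 46.46, 74.92 and 67.55 in DN-MAML, and by its mean it ranked 1147 among the 32105 genes of the table. klf6a, an injury-responsive activator, had 29.75, 64.65 and 77.67 FPKM in WT and 28.82, 46.95 and 45.11 in DN-MAML. In both groups the sample numbered 1 was the lowest for klf6a, and for klf2a the spread lay within DN-MAML. tbx5a, a heart and fin factor, came next with 57.47, 40.87 and 39.19 FPKM in WT and 39.60, 35.17 and 40.84 in DN-MAML. The SoxC gene sox4a (ENSDARG00000004588), which acts in progenitors and in endothelium, followed with 40.00, 15.23 and 20.40 FPKM in WT and 54.38, 31.98 and 33.86 in DN-MAML. A further identifier that carries the name sox4a (ENSDARG00000096389) had at most 0.30 FPKM in any sample.

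**Figure D1:**
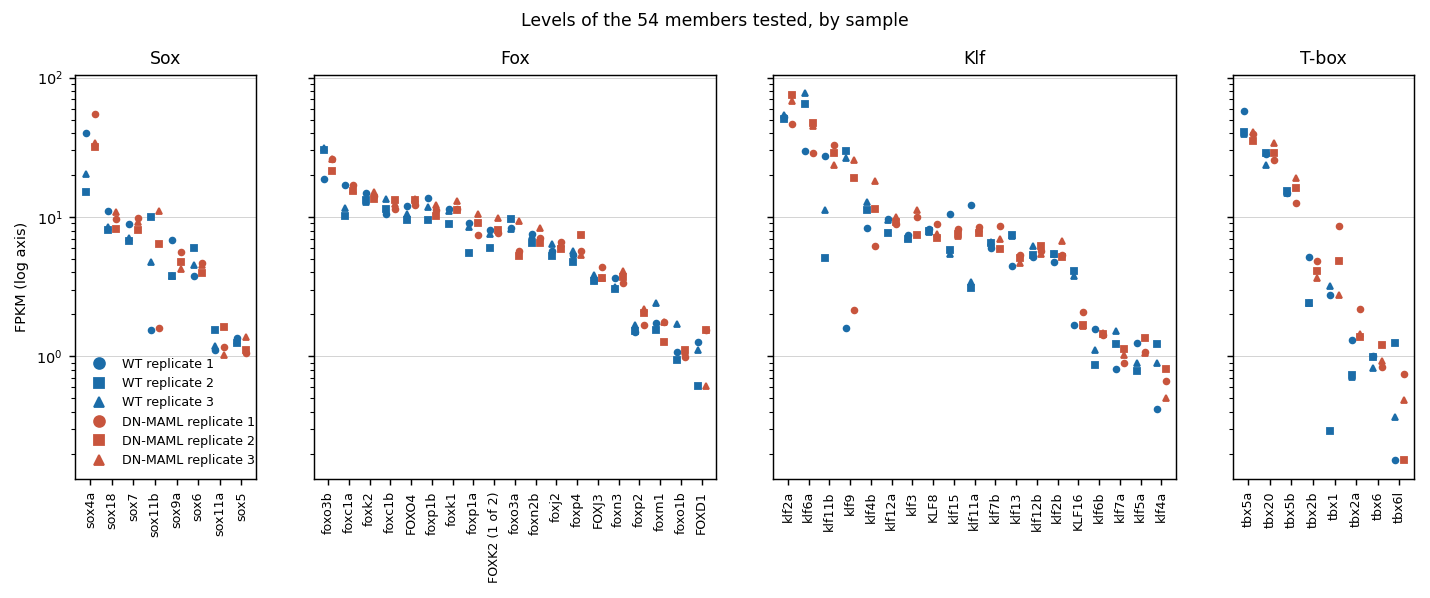
FPKM on a log axis for the 54 members with a mean of at least 0.5 FPKM, ordered by mean within each family. Each point is a sample (blue WT, red DN-MAML, shape by replicate number). The highest means are those of klf2a (57.5 FPKM), klf6a (48.8) and tbx5a (42.2), and in klf9 and sox11b the circles (replicate 1 of each group) sit far below the other samples.

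None of the members differed between DN-MAML and WT past the threshold. Of the 111 members, 54 passed the minimum mean of 0.5 FPKM over all samples and were tested, and limma called 0 of them at an adjusted p under 0.05, with a lowest adjusted p of 0.305. The background is low as well: 16 of the 16556 genes tested, 0.0966%, were called. At an unadjusted p under 0.05 there were 3 members, tbx2a, klf3 and FOXO4, against 13.2% of all genes tested. The authors' deposited table, a DESeq2 result, also calls none of the 64 members to which it gives an adjusted p, where it calls 4.38% of all genes. Its unadjusted p was under 0.05 for 5 of 103 members, against 11.9% of all genes.

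The differences that the samples allow are bounded for most members. The 95% interval of the log2 difference lay within 1 unit of 0, that is within a 2-fold change, for 45 of 54 members, against 88.1% of all genes tested. It lay within a 1.5-fold change for 29 of 54. Their median standard error was 0.17 on the log2 scale, and over all genes it was 0.14. The median difference of the members was 0.08, with 37 on the higher and 17 on the lower side, where all genes had a median of 0.03 and 55.1% on the higher side. By family the medians were 0.07 for Sox, 0.11 for Fox, 0.07 for Klf and 0.09 for T-box, and each kept its sign after median-ratio scaling and quantile normalization. With no filter on low genes the Fox median was -0.00467, and without WT replicate 3 the Sox median was -0.0122. When 1 sample was left out the Klf median ranged from 0.03 to 0.14, the T-box median from 0.05 to 0.22 and the Fox median from 0.04 to 0.15.

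**Figure D2:**
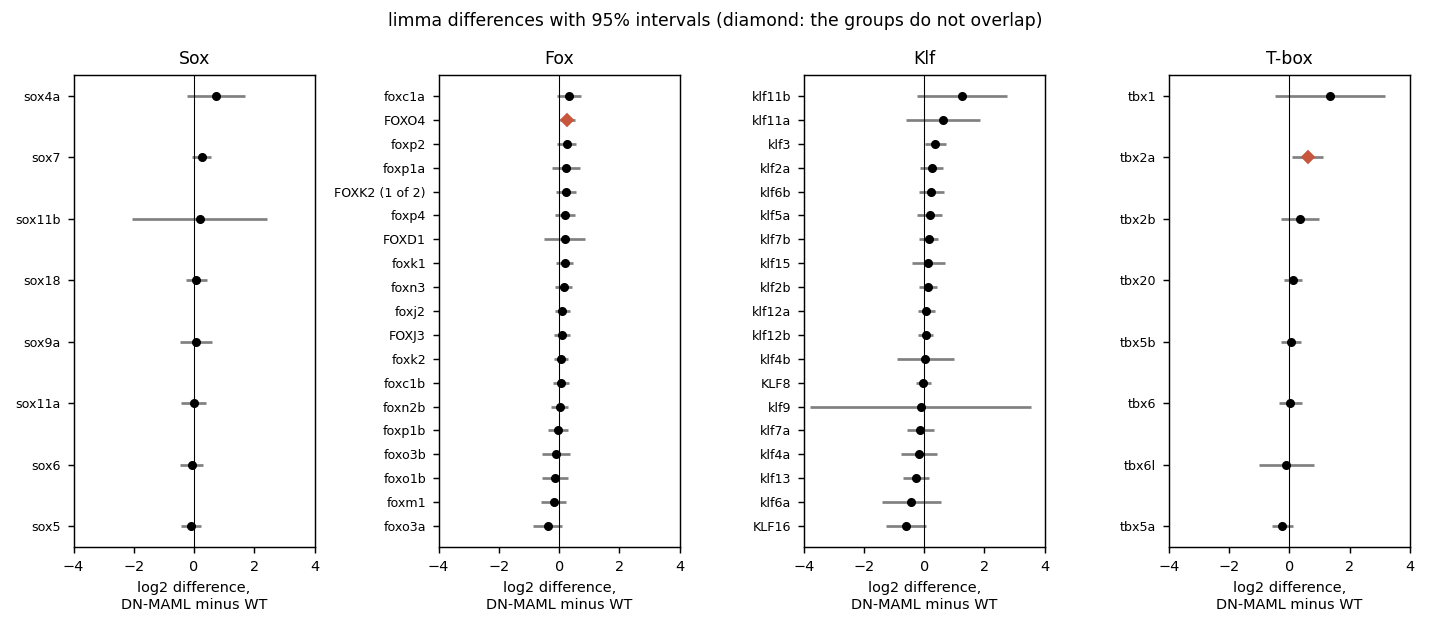
log2 difference of DN-MAML minus WT from limma on log2(FPKM + 0.5), with its 95% interval, for the 54 members tested. Diamonds mark FOXO4 and tbx2a, the members whose groups do not overlap. Most intervals are narrow and span 0, while those of klf9, sox11b, tbx1 and klf11b reach beyond 2 log2 units.

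Only FOXO4 and tbx2a among the 54 members had groups that do not overlap, both with DN-MAML higher, and none had DN-MAML lower. Over all genes tested these shares were 9.83% and 8.98%. tbx2a, a repressor of chamber genes, had 1.31, 0.74 and 0.71 FPKM in WT and 2.19, 1.38 and 1.44 in DN-MAML. WT replicate 1 lay just under the lowest DN-MAML sample. The log2 difference was 0.62 (SE 0.22; 95% interval 0.11 to 1.13; limma, adjusted p = 0.305), and in the authors' deposited table tbx2a has a log2 change of 0.75 and an adjusted p of 0.0689. FOXO4, a forkhead factor held in check by insulin signalling, had 12.04, 9.48 and 10.57 FPKM in WT and 12.16, 13.35 and 13.55 in DN-MAML. WT replicate 1 again lay just under the lowest DN-MAML sample, with a log2 difference of 0.28 (SE 0.11; limma, adjusted p = 0.357). klf3, a repressor that binds CtBP, had 7.48, 6.98 and 7.12 FPKM in WT and 10.08, 7.47 and 11.15 in DN-MAML. DN-MAML replicate 2 fell among the WT values of klf3, the log2 difference was 0.37 (SE 0.15; limma, adjusted p = 0.349), and the lowest adjusted p of any member in the authors' deposited table is its 0.0574 (log2 change 0.37). klf3 is named here after its values were seen.

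The SoxF genes, which act in endothelium and can drive Notch pathway genes there, overlapped between the groups. sox7 had 8.95, 6.70 and 7.08 FPKM in WT and 9.89, 8.09 and 9.18 in DN-MAML (log2 difference 0.25, SE 0.14; limma, adjusted p = 0.468). sox18 had 11.08, 8.02 and 8.49 FPKM in WT and 9.75, 8.25 and 10.93 in DN-MAML (0.07, SE 0.15; 95% interval -0.28 to 0.42). For sox7 and sox18 alike, WT replicate 1 lay among or above the DN-MAML samples. The third SoxF gene of endothelium, sox17, has no FPKM under its identifier; in the authors' deposited table its log2 change is -0.18 (adjusted p = 0.841). Another identifier of the FPKM table, which the gene name table calls SOX17 and which is not counted as a member, had 0.37, 0.43 and 0.44 FPKM in WT and 0.31, 0.38 and 0.50 in DN-MAML.

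FoxC genes were close in level to each other. foxc1a had 16.98, 10.17 and 11.67 FPKM in WT and 17.10, 15.29 and 15.69 in DN-MAML, so that only WT replicates 2 and 3 were low (log2 difference 0.33, SE 0.18; limma, adjusted p = 0.463). foxc1b had 10.59, 11.35 and 13.53 FPKM in WT and 11.33, 13.18 and 12.33 in DN-MAML (0.06, SE 0.12). The groups of foxc1b overlapped throughout, with a 95% interval of -0.22 to 0.33. As a setting for these vessel factors, 22 endothelial and endocardial markers were found. They summed to 412 to 478 FPKM in WT and 409 to 513 in DN-MAML, with none at 0, and of the 21 tested, 13 were on the higher and 8 on the lower side (median log2 difference 0.08). Of 18 genes listed as acting with SoxF and FoxC factors, most of them of the Notch pathway, 9 were on each side. Outside that pathway, the list holds nr2f2, cxcr4a and FLT4, on the higher side, and prox1a, on the lower side. The repressor her6 was the 1 called by limma, lower in DN-MAML (log2 difference -0.97, SE 0.11; adjusted p = 0.0377), while the authors' deposited table gives 3 of 19 as lower, against 2.27% of all genes. The limma call of her6 was lost without WT replicate 2 (adjusted p = 0.106), WT replicate 3 (0.137), DN-MAML replicate 2 (0.0985) or DN-MAML replicate 3 (0.142), with a log2 difference of -0.89 to -1.06 when 1 sample was left out.

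Among the other Fox genes, foxo3b, a stress-responsive FoxO factor, was the highest at 18.76, 30.21 and 31.13 FPKM in WT and 26.15, 21.22 and 25.87 in DN-MAML. WT replicates 2 and 3 were above all other samples for foxo3b (log2 difference -0.10, SE 0.20). foxk2 followed at 14.98, 13.28 and 12.83 FPKM in WT and 14.17, 13.45 and 15.15 in DN-MAML (0.06, SE 0.10), with all 6 samples close together. foxp1b, a factor of heart muscle and of lymphocytes, had 13.58, 9.57 and 11.82 FPKM in WT and 11.30, 10.21 and 12.12 in DN-MAML (-0.04, SE 0.14). The groups of foxp1b overlapped, with a 95% interval of -0.37 to 0.28. Of 25 genes known as FoxO targets, 19 were on the higher and 6 on the lower side (median 0.13) and limma called 0. The authors' deposited table gives 2 of 23 as higher, one of them the repressor bcl6a (log2 change 0.53, adjusted p = 0.00922), against a background of 2.11%. In limma bcl6a, with the lowest p of the list, had a log2 difference of 0.57 (SE 0.19; adjusted p = 0.280).

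foxm1, the forkhead factor of dividing cells, was low and its groups overlapped, at 1.74, 1.54 and 2.40 FPKM in WT and 1.76, 1.27 and 1.77 in DN-MAML. WT replicate 3 was the highest sample. The log2 difference was -0.18 (SE 0.18; 95% interval -0.60 to 0.24; limma, adjusted p = 0.694). Of 21 tested genes known as its mitotic targets, 20 were on the lower side (median -0.51). limma called 0 of them, and the authors' deposited table gives 11 of 20 as lower, against a background of 2.27%. Among them CDC20 had 10.58, 10.75 and 14.81 FPKM in WT and 7.56, 5.75 and 6.60 in DN-MAML (log2 difference -0.81, SE 0.16; limma, adjusted p = 0.144). cdk1, the mitotic kinase, had 22.62, 23.96 and 33.49 FPKM in WT and 15.47, 13.89 and 16.01 in DN-MAML (-0.78, SE 0.16; adjusted p = 0.144). CDC20 and cdk1 had the lowest p of the list in limma, and their groups did not overlap. The other tested genes of the list had DN-MAML below WT without overlap as well, apart from aurka, ccnb2, cenpe, cdc25 and skp2. In kif20a, for example, WT had 7.17 to 10.94 FPKM and DN-MAML 4.06 to 5.11. Over all genes tested the share with DN-MAML lower and no overlap was 8.98%. The foxm1 interval of -0.60 to 0.24 includes the targets' median of -0.51. No difference between foxm1 and its targets is therefore read from these values. With 0.1 added in place of 0.5 the log2 difference of foxm1 was -0.22, and its log2 change in the authors' deposited table is -0.25.

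The cardiac T-box genes differed little. tbx5a (values above) had a log2 difference of -0.23 (SE 0.15; 95% interval -0.59 to 0.13; limma, adjusted p = 0.551), and WT replicate 1 stood above all other samples. tbx5b had 14.96, 15.43 and 14.79 FPKM in WT and 12.69, 16.16 and 18.91 in DN-MAML (0.06, SE 0.14). tbx20, which maintains heart muscle, had 28.12, 28.73 and 23.70 FPKM in WT and 25.68, 28.95 and 33.86 in DN-MAML (0.13, SE 0.13; 95% interval -0.17 to 0.43). The groups of tbx5b and of tbx20 overlapped. Of 11 genes known as targets of Tbx5 or Tbx20, 4 were on the higher and 7 on the lower side (median -0.09), and limma called 0. The potassium channel gene kcnh6, with the lowest p of the list in limma, had 54.08, 63.97 and 57.07 FPKM in WT and 114.19, 72.12 and 118.18 in DN-MAML (log2 difference 0.76, SE 0.19; limma, adjusted p = 0.205). It is given for that p and does not stand for the list. In the authors' deposited table kcnh6 is the 1 of 12 such genes past the threshold and higher (log2 change 0.71, adjusted p = 0.00922), where 2.11% of all genes are.

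tbx2b, the other Tbx2 gene, had 5.20, 2.43 and 2.40 FPKM in WT and 4.81, 4.12 and 3.64 in DN-MAML. Only WT replicate 1 kept its groups from separating (log2 difference 0.36, SE 0.27; limma, adjusted p = 0.602, and 0.0884 without that sample). tbx1 (ENSDARG00000031891), a factor of the pharynx and outflow tract, varied most among the T-box genes, with 2.75, 0.29 and 3.21 FPKM in WT and 8.68, 4.86 and 2.74 in DN-MAML. Its log2 difference of 1.35 (SE 0.72; 95% interval -0.46 to 3.17) was the largest of the members tested with all 6 samples and did not pass (limma, adjusted p = 0.481). Without WT replicate 2 the log2 difference of tbx1 was 0.64, under that of klf11b. tbx1 is named here after its values were seen.

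sox9a and sox9b, whose family is known for cartilage and valve tissue, differed in level. sox9a had 6.81, 3.78 and 3.77 FPKM in WT and 5.61, 4.78 and 4.27 in DN-MAML (log2 difference 0.07, SE 0.22; limma, adjusted p = 0.924), again with WT replicate 1 the highest. sox9b had 0.48, 0.23 and 0.46 FPKM in WT and 0.56, 0.40 and 0.31 in DN-MAML, under the minimum. Of 8 genes known as Sox9 targets, 4 were on each side (median -0.02), and limma called 0. The hyaluronan link protein gene hapln1a, with the lowest p of the list in limma, had 33.67, 21.93 and 23.87 FPKM in WT and 14.14, 17.72 and 11.44 in DN-MAML (log2 difference -0.85, SE 0.21; limma, adjusted p = 0.196). It is 1 of the 2 genes on that list, among 11, that are called lower in the authors' deposited table (log2 change -0.77, adjusted p = 0.0228), where 2.27% of all genes are. Next by p in limma were matn4 (log2 difference 0.49) and matn3a (0.37), both higher in DN-MAML. hapln1b, on the same list, differed little (0.03, SE 0.19).

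Several members stayed near the floor of the FPKM scale. sox10, the factor of neural crest and Schwann cells, had 0.17, 0.15 and 0.18 FPKM in WT and 0.31, 0.24 and 0.18 in DN-MAML. foxn4, which is needed for the atrioventricular canal of the zebrafish embryo, had 0.14 FPKM or less in every sample. foxp3a, a marker of regulatory T cells, had 0.23, 0.10 and 0.44 FPKM in WT and 0.22, 0.14 and 0.17 in DN-MAML; it was chosen after these values were known. These genes were not tested in limma; the authors' deposited table gives adjusted p of 0.521 for sox10, 0.954 for foxn4 and 0.645 for foxp3a. In all 57 members were under the minimum, none of them above 0.88 FPKM in any sample. Among these, foxh1 and tbx15 had DN-MAML above WT in every sample and tbx22 below, at levels of 0.24 FPKM or less. Values are rounded to 0.01 FPKM, and for tbx22 the lowest WT value was 0.03 and the highest DN-MAML value 0.02. Nothing is read from these 3 genes. Groups did not overlap in 18.8% of all genes tested, and no share was taken over genes under the minimum.

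In several Klf genes the widest differences among samples ran within the groups. klf9 had 1.61, 29.62 and 26.62 FPKM in WT and 2.15, 18.89 and 25.66 in DN-MAML. The sample numbered 1 was low in each group and the others were high, so the groups overlapped (log2 difference -0.12, SE 1.44; 95% interval -3.80 to 3.56; limma, adjusted p = 0.982). klf9 is known as a target of the glucocorticoid receptor. A set of clock and glucocorticoid-responsive genes, put together after these values were seen, was therefore read beside it without a test. fkbp5, a chaperone partner of that receptor, had 4.33, 241.17 and 246.43 FPKM in WT and 5.78, 74.02 and 107.78 in DN-MAML. nr1d2a, a nuclear receptor of the clock, had 12.93, 94.63 and 103.87 in WT and 13.22, 58.03 and 72.46 in DN-MAML. Both followed klf9 in having the samples numbered 1 far below the rest. Other genes of that set did not: per1b had 4.40 to 5.31 FPKM and nr1d2b 31.28 to 34.20 over all 6 samples. The whole set of 32 genes summed to 521, 848 and 921 FPKM in WT and to 455, 690 and 865 in DN-MAML. Much of that order came from fkbp5, nr1d2a and tsc22d3 (83.00, 142.97 and 154.57 FPKM in WT and 28.97, 134.20 and 175.47 in DN-MAML). For tefa and bhlhe40, WT replicate 1 was the highest WT sample, so the sums do not stand for every gene of the set. Sums of the immediate early genes (38) were 1073, 2581 and 2799 FPKM in WT and 771, 1982 and 2034 in DN-MAML, with replicate 1 the lowest in each group. Of the 36 tested, 7 were on the higher and 29 on the lower side (median log2 difference -0.42), and limma called 0. In the authors' deposited table the 1 of 33 immediate early genes called is higher, socs3b (log2 change 1.22, adjusted p = 0.00184). Of 28 clock and glucocorticoid-responsive genes there, 2 are called higher and 1 lower, where 2.11% and 2.27% of all genes are. What sets the samples numbered 1 apart was not tested, and the labels do not say that a number marks a shared day or batch.

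sox11b resembled klf9, at 1.55, 10 and 4.74 FPKM in WT and 1.60, 6.36 and 10.98 in DN-MAML. Its samples numbered 1 were again the lowest (log2 difference 0.18, SE 0.88; limma, adjusted p = 0.950). In the authors' deposited table sox11b has a mean normalized count of only 0.16, at odds with these FPKM, so its level is uncertain. In all, 5 of 54 members (klf9, sox11b, klf11b, tbx1 and tbx6l) had a highest sample at least 4 times the lowest, against 6.43% of all genes tested. In 13 of 54 members (24.1%) both samples numbered 1 lay outside the range of the other 4, in 7 of them above and in 6 below. Over all genes this share was 15.0%.

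A further group of Klf genes separated WT replicates 2 and 3 from the other 4 samples, with WT replicate 1 among the DN-MAML samples or beyond them. klf11b, a repressor of the Sin3-binding group, had 27.28, 5.04 and 11.17 FPKM in WT and 32.89, 28.98 and 23.68 in DN-MAML (log2 difference 1.24, SE 0.59; limma, adjusted p = 0.438). The log2 difference of klf11b was 0.68 without WT replicate 2 and 1.84 without WT replicate 1. klf11a had 12.18, 3.09 and 3.42 FPKM in WT and 8.47, 7.69 and 8.27 in DN-MAML (0.62, SE 0.50; adjusted p = 0.629). KLF16 ran the other way, with 1.69, 4.07 and 3.80 FPKM in WT and 2.08, 1.69 and 1.65 in DN-MAML (-0.61, SE 0.28; adjusted p = 0.405). klf11a and KLF16 are named after their values were seen. In 24 of 54 members (44.4%) WT replicates 2 and 3 both lay outside the other 4 samples, 17 below and 7 above, and over all genes tested the share was 26.5%. By family these were 12 of 19 Klf, 7 of 19 Fox, 3 of 8 Sox and 2 of 8 T-box genes. All these genes share the same 6 libraries, so the shares are descriptions.

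Whether any member was called turned on WT replicate 1. Without it limma called 2 of 54 members, klf11a (log2 difference 1.20, SE 0.12; adjusted p = 0.00706) and KLF16 (-0.95, SE 0.15; adjusted p = 0.0367), where 1.11% of all genes were called. Leaving out WT replicate 2 (0.0904% of all genes called), WT replicate 3 (0.0242%), DN-MAML replicate 1 (0.0666%), DN-MAML replicate 2 (0.0242%) or DN-MAML replicate 3 (0.0363%) called 0 members. Without both samples numbered 1, a choice made after seeing the data, 3 of 55 members were called, klf11a (1.18, adjusted p = 0.0110), KLF16 (-1.03, adjusted p = 0.0294) and sox4a (ENSDARG00000004588; 0.88, SE 0.16; adjusted p = 0.0434), where 1.30% of all genes were called. With all samples sox4a had a log2 difference of 0.73 (SE 0.39; limma, adjusted p = 0.477). klf6a had a log2 difference of -0.43 (SE 0.40; limma, adjusted p = 0.676) with all samples, -0.84 (adjusted p = 0.151) without WT replicate 1 and -0.62 (adjusted p = 0.0883) without both samples numbered 1.

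**Figure D3:**
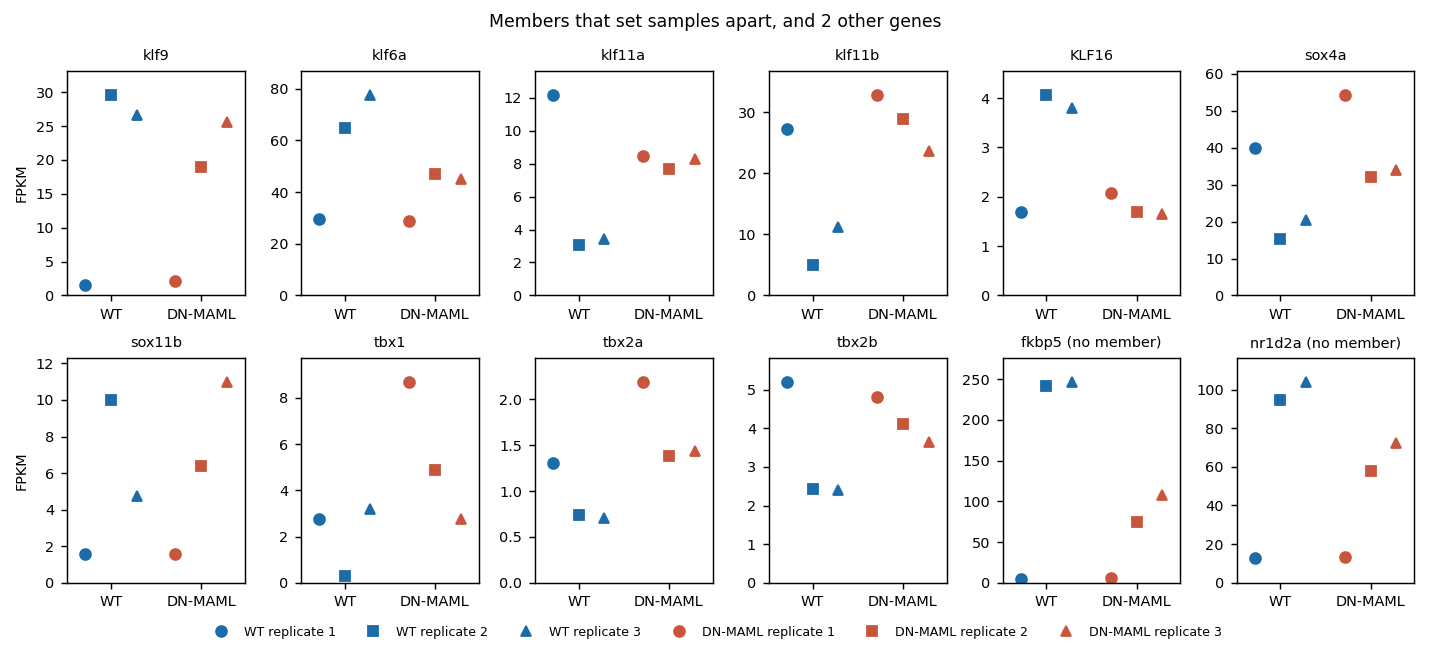
FPKM per sample on linear axes from 0 for 10 members and for fkbp5 and nr1d2a, which are no members. In klf9, sox11b, fkbp5 and nr1d2a both circles (replicate 1 of each group) are low. In klf11b and KLF16 WT replicate 1 sits among the DN-MAML samples, and in klf11a and tbx2b it sits above them. In each of those it is away from WT replicates 2 and 3.

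klf2a, klf2b, klf4a and klf4b overlapped between the groups. klf2a (values above) had a log2 difference of 0.24 (SE 0.17; 95% interval -0.15 to 0.64; limma, adjusted p = 0.569). klf2b had 4.74, 5.44 and 5.40 FPKM in WT and 5.33, 5.18 and 6.72 in DN-MAML (0.13, SE 0.13). klf4a, which the gene name table calls KLF4, had 0.42, 1.22 and 0.89 FPKM in WT and 0.67, 0.81 and 0.50 in DN-MAML (-0.17, SE 0.25). klf4b, which the gene name table calls klf17, had 8.33, 11.18 and 12.82 FPKM in WT and 6.16, 11.41 and 18.23 in DN-MAML (0.04, SE 0.39). Both klf4a and klf4b were chosen after these values were known. klf4b had its lowest value in the sample numbered 1 of each group. Of 11 genes known as endothelial targets of Klf2 or Klf4, 8 were on the higher and 3 on the lower side (median 0.14), and limma called 0. The list was not split by whether Klf2 or Klf4 raises or lowers a gene, so their activity is not read from these sides. Among them E-selectin (sele) had the lowest p in limma. Its values were 19.50, 14.75 and 17.46 FPKM in WT and 33.28, 29.17 and 32.73 in DN-MAML (log2 difference 0.87, SE 0.12; limma, adjusted p = 0.0715), with groups that do not overlap. Next by p was s1pr1, on the lower side and with groups that overlap (log2 difference -0.49, SE 0.19, limma, adjusted p = 0.330). In the authors' deposited table sele is the 1 of 12 such genes called, with a log2 change of 0.81 and an adjusted p of 1.11e-09, where 2.11% of all genes are higher. In limma sele passed without WT replicate 1 (adjusted p = 0.0196).

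Duplicated genes of the zebrafish differed in level, and some of their ratios moved between samples. Of 23 pairs of members whose names differ in a final a or b, 12 had both copies tested, 2 had 1 copy tested and 9 had neither. Pairs were taken by name only, and klf4b also carries the name klf17, so klf4a and klf4b may be different genes. Within a pair the copies could differ widely: klf2a was 8.72 to 14.5 times klf2b over the 6 samples, and tbx5a was 2.16 to 3.84 times tbx5b. klf6a over klf6b was 18.9, 74.3 and 69.3 in WT and 20.2, 32.6 and 30.5 in DN-MAML, so the ratio followed klf6a, which was low in the samples numbered 1. The ratio that varied most among the 12 pairs was sox11a over sox11b, from 0.0938 to 0.725, with the uncertain level of sox11b in it. foxc1a over foxc1b lay on either side of 1, at 1.60, 0.896 and 0.863 in WT and 1.51, 1.16 and 1.27 in DN-MAML. The steadiest pair was klf12a over klf12b, at 1.43 to 1.85. Only tbx2a over tbx2b separated the groups among the 12 pairs, at 0.252, 0.305 and 0.296 in WT and 0.455, 0.335 and 0.396 in DN-MAML, a difference that was not tested. tbx2a by itself also separated them, as did 18.8% of all genes tested. No such share was taken over ratios of other gene pairs, so nothing is read from this pair. Reads shared between copies of a pair could shift such ratios, and how the authors counted them is not given in the sources used here.

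**Figure D4:**
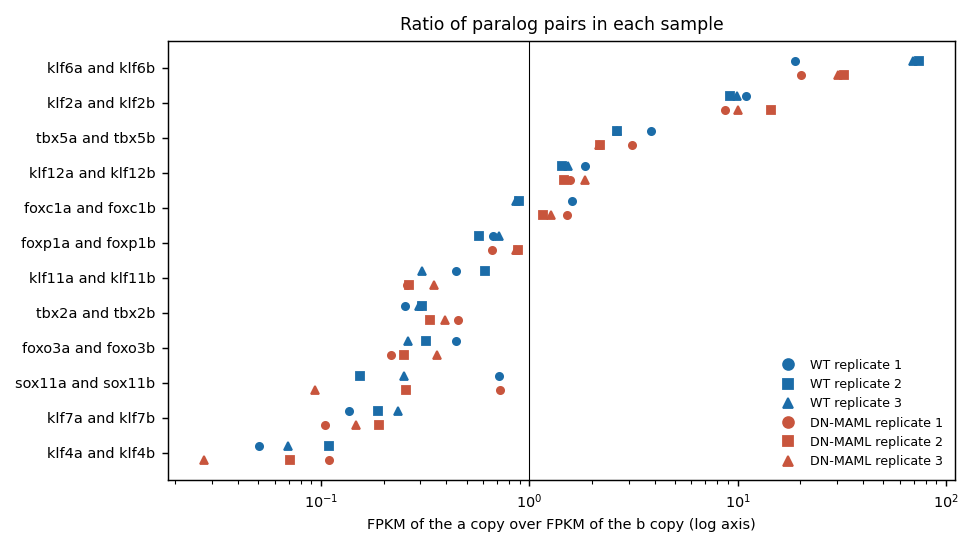
FPKM of the a copy over FPKM of the b copy on a log axis for the 12 pairs with both copies tested, 1 point per sample. Ratios run from klf4a at 0.0274 to 0.109 times klf4b to klf6a at 18.9 to 74.3 times klf6b, and the groups are apart in tbx2a over tbx2b. Pairs are by name, and klf4b, also called klf17, may not be a copy of klf4a.

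Markers of other cell types were read as a setting for the members. Of 5 Schwann cell and neural crest markers tested (12 found, none at 0 in every sample), 3 were on the higher and 2 on the lower side (median 0.17), and they summed to 166 to 176 FPKM in WT and 140 to 151 in DN-MAML, while sox10 lay under the minimum. Of 14 epicardial and fibroblast markers tested, 8 were on the higher side (median 0.13; 2020 to 3639 FPKM in WT and 2852 to 3654 in DN-MAML). Of 11 smooth muscle and mural markers tested, 5 were on the higher side (median -0.02; 1274 to 1452 and 1184 to 1280 FPKM). Thrombocyte markers (7) had 4 on the lower side (median -0.15, with 76.4 to 99.2 FPKM in WT and 72.1 to 91.4 in DN-MAML). Of 21 cilia genes that Foxj1 is known to drive, 6 were tested and 4 of these were on the higher side (median 0.11). The 21 summed to 21.4 to 25.1 FPKM in WT and 22.7 to 26.0 in DN-MAML. Foxj1 itself was near absent, with foxj1b at 0.03 FPKM or less and foxj1a at a mean normalized count of 1.15 in the authors' deposited table. limma called none of the genes on these 5 lists. In the authors' deposited table krt4 is the 1 of 14 epicardial and fibroblast markers called higher, where 2.11% of all genes are. Called lower there are pmp22b of 7 Schwann markers, acta2 of 10 smooth muscle markers and GP9 of 7 thrombocyte markers, where 2.27% of all genes are. acta2 had a log2 difference of -1.27 (SE 0.21, limma, adjusted p = 0.121), far from the median of its list. pmp22b, a large part of the Schwann sum, averaged 93.5 FPKM in WT and 58.6 in DN-MAML.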

How the data were processed

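The submitters' processing notes list cutadapt, FastQC, STAR, DESeq2 and featureCounts. For their versions and roles, the build and the annotation, the sources used here give nothing. Values in FPKM per gene and sample, rounded to 0.01, were deposited by the authors. The authors also deposited a comparison table whose headers are those of DESeq2: a mean normalized count (a signal over all samples), a log2 fold change with its standard error, a score (change over error), and a p-value and adjusted p-value. No counts per sample were used, so the depth of a sample is unknown, and counting intervals are left out.

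The 16556 genes whose mean reached 0.5 FPKM were fitted on the scale log2(FPKM + 0.5), with limma 3.58.1 (R 4.3.3), a robust variance trend and no block. The added 0.5 understates differences of low genes. Adjustment of p-values was by the Benjamini-Hochberg method across every gene tested, and 0.05 was the threshold. Errors are standard errors, intervals are 95%, and n = 3 per group. With 3 samples a group, 0.1 is the smallest p of an exact two-sided permutation test, so none was run. Since the labels do not name separate animals or pools, p-values reflect the spread between these 6 samples, which may be technical. The fit was tested on simulated data before use. Tables were prepared in Python 3.11.15.

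Members and gene lists were chosen with earlier results of these data known, so no count or median of a list is independent support. Genes named in full are the 4 highest of each family, members past a threshold, members whose groups do not overlap, and a set chosen for their roles; others are marked as named after their values were seen. klf4 matched no member by that name. Lists were matched by symbol, and members were left out of them.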

Additional observations from a re-analysis of the deposited data

How the results depend on the processing

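No member was called with all 6 samples under 8 alternatives (lowest adjusted p from 0.162 to 0.371 in limma), and the number called when 1 sample was left out ranged from 0 to 2. Without both samples numbered 1, added after seeing the data, it was 3. The members' median log2 difference of 0.08 ranged from 0.07 to 0.13 when 1 sample was left out, and was 0.0105 with no filter and 0.157 without both samples numbered 1. Over all genes, 16 calls became 9 with a minimum mean of 2 FPKM, 10 after quantile normalization and 214 without both samples numbered 1, and from 4 to 183 when 1 sample was left out. With the replicate number as a block, limma called 0 genes over all genes and 0 members, with an adjusted p of 0.111 for her6. The cause was not tested. The call of her6 was also lost with no filter (0.0859), after quantile normalization (0.0515) and without the robust estimate (0.0521). CDC20 passed without both samples numbered 1 (0.0455), and so did sele (0.0231), which also passed after median-ratio scaling (0.0443). Deviations from group means correlated over genes at 0.208, -0.0264 and 0.14 between samples of the same number. Between samples of different numbers the range was -0.224 to 0.0943. With the block the SE of klf9 fell from 1.44 to 0.195. The labels name no block, so the main fit had none, and these values do not settle whether the numbers pair the samples. Of 27 named members tested, 18 kept their sign in every alternative run (15, or 14 for foxm1 and tbx2a, whose means are under 2 FPKM). The other 9 did not: foxc1b, foxo3b, foxp1b, klf4b, klf9, sox11b, sox18, sox9a and tbx5b. klf4a, which is not in that count, changed sign without WT replicate 2 (log2 difference 0.028). With no filter, 104 members were tested and limma called 0 of them, where it called 11 of 26407 genes.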

Other observations

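The authors' deposited table also covers names of these families that have no FPKM under their identifier. Among them foxo1a, a forkhead factor of the insulin pathway, has a mean normalized count of 594 and a log2 change of 0.21 (adjusted p = 0.601). The SoxC gene sox4b has a mean normalized count of 678 and a log2 change of -0.12 (adjusted p = 0.861), both in the authors' deposited table. The FPKM table holds further identifiers to which the gene name table gives a family symbol and which are no members. Of these, the one called sox13, a SoxD gene, had 1.38, 0.92 and 1.09 FPKM in WT and 1.36, 1.21 and 1.21 in DN-MAML.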
